A study of Mus musculus with 21 samples.

Results

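The cytosolic ribosomal protein genes encode the proteins of the small and large ribosomal subunits. They were taken from the rows of the deposited tables by symbol: Rpl or Rps followed by a number, with or without a or x, Rpl and a number followed by l, Rplp0 to Rplp2, and Rpsa. The rule left out pseudogenes, S6 kinase genes, Fau and Rack1, and found 80 of 24509 rows, of which 30 belong to the small and 50 to the large subunit with its stalk. Hearts of CD1 mouse embryos that were Chd4 flox/flox (called flox) were compared with hearts that were Chd4 Δflox/Δflox (called null), at embryonic day 9.5 (E9.5, 5 libraries a genotype, 200 ng of RNA) and at E10.5 (3 libraries a genotype, 300 ng of RNA). Libraries were strand-specific and prepared from polyA RNA. The Cre line that recombined the floxed allele, the cells it acts in and the number of hearts in a library are not given in the sources used here. A separate assay pulled down chromatin of wild-type CD1 hearts at E10.0 with an antibody to CHD4 (3F2/4) and gave 3 peak lists, which come from 2 biological samples.

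Most of these proteins are present in equal numbers in every ribosome, and growing cells make their mRNAs in large amounts. Their mRNAs begin with a C followed by a run of C and T (the 5′ terminal oligopyrimidine, or TOP, motif), through which mTOR and Larp1 control their translation, and unassembled Rpl5 and Rpl11 bind Mdm2 and stabilise p53. CHD4 is the ATPase of the NuRD nucleosome remodelling complex, and the embryonic heart grows by rapid division of its myocytes over the days studied.

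The starts of these genes were read from RefSeq promoter windows (GRCm38.p6, the assembly that mm10 names), which matched 60 of the 80 genes. Sequences from 30 bases before to 20 bases from the annotated start are shown for genes on which later results turn, 5′ to 3′ on the gene's strand. The capitals mark a C at the annotated start followed by at least 4 bases that are C or T. The stalk gene Rplp2 fell in E9.5 null hearts, Rps6 is the S6 kinase substrate, and the rest span the levels and differences given below.
Rplp2 (chr7:141447621-141447670, plus strand): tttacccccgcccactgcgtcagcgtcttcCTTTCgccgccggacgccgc
Rps6 (chr4:86857348-86857397, minus strand): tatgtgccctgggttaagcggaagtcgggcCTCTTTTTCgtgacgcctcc
Rpl15 (chr14:18270967-18271016, minus strand): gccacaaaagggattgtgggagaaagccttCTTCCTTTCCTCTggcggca
Rpl35 (chr2:39005112-39005161, minus strand): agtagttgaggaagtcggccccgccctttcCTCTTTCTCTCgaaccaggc
Rpl14 (chr9:120571487-120571536, plus strand): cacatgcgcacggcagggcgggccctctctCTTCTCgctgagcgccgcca
Rps15a (chr7:118116128-118116177, minus strand): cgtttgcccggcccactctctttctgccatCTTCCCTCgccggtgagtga
In the next sequences no such run has its C within 10 bases of the start. In Rpl4 a run of C and T begins further upstream and ends within 10 bases of the start. Rpl11 encodes a protein of the 5S particle, Rpl26 differed between libraries more than any other member, and Rpl4 was among the most abundant.
Rpl11 (chr4:136053374-136053423, minus strand): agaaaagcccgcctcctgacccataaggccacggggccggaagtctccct
Rpl26 (chr11:68901536-68901585, plus strand): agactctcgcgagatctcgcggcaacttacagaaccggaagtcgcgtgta
Rpl4 (chr9:64173357-64173406, plus strand): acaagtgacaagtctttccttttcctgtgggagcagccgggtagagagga

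Of the 60 genes, 14 (23.3%) held the oligopyrimidine run exactly at an annotated start, among them Rpl28, Rpl35a, Rpl38, Rps10, Rps18, Rps21 and Rps27, against 3.14% of 10600 tested genes and 2.51% of 32851 promoter windows. With the C allowed within 10 bases of the start on either side, the run was found in 38 (63.3%) of the members and in 37.4% of tested genes. The ETS letters CCGGAAG, searched on both strands of the window of 250 bases before to 50 bases after the start, were present in 24 members (40.0%) and in 18.8% of tested genes. The YY1 letters AAGATGGC, on both strands, were present in 5 members (8.33%) and in 4.96% of tested genes. The letters TATAA, on the gene's strand, were present in 16 members (26.7%) and in 11.2% of tested genes. The motifs were counted separately, and in Rpl15 and Rps6 a run at the start stood in a window that also held CCGGAAG.

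CHD4 peaks shared by all 3 lists lay within 1 kb of an annotated start for 53 of the 60 members, which is 88.3% (95% Wilson interval 77.8 to 94.2, covering counting error only), against 57.8% of the 10600 tested genes with a start. Shared peaks overlapped the start itself in 52 of these 53 genes, for example a peak of 1246 bases at Rplp2, of 455 bases at Rps6 and of 551 bases at Rpl26. The 7 members without a shared peak were Rpl3l, Rpl10l, Rpl39l, Rpl32l, Rps16, Rps4x and Rpl31. Rpl3l, Rpl10l and Rpl39l are paralogs known from striated muscle and testis and were near 0 in these hearts, while Rps16, Rps4x and Rpl31 were transcribed. Whether a peak goes with a member's level or with its difference in null hearts was not tested.

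**Figure D1:**
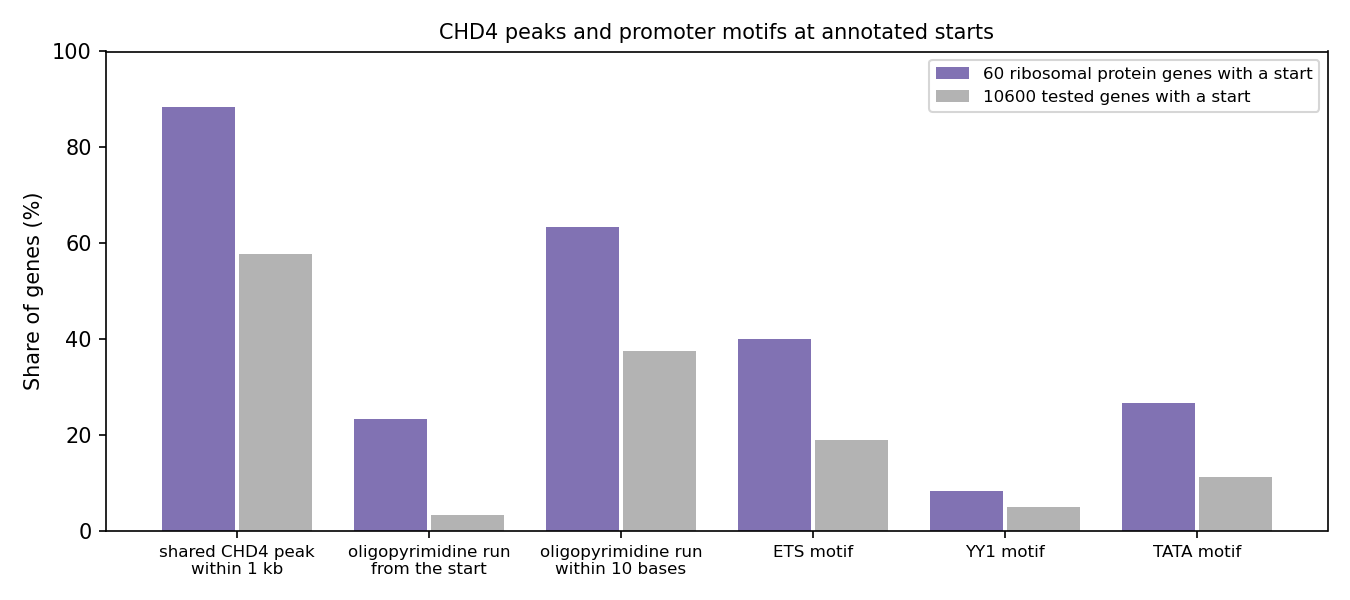
Share of genes, in percent, with a shared CHD4 peak or a promoter motif at an annotated start, for 60 ribosomal protein genes (purple) and 10600 tested genes (grey). A peak was present at 88.3% of the ribosomal protein genes and 57.8% of tested genes, and the oligopyrimidine run from the start at 23.3% and 3.14%.

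Levels are RPKM, reads per kilobase of the authors' gene length scaled to the size of the library. Listed reads, in M (1e6 reads), ran from 14.6 to 19.96 in E9.5 libraries and from 15.04 to 16.1 in those of E10.5, and no pair of libraries held the same values. Chd4 was 91.2 to 94.6 RPKM in flox and 40.7 to 48.8 RPKM in null libraries at E9.5, and 67.2 to 91.1 against 48.2 to 57.4 RPKM at E10.5. It fell at E9.5 (log2 -1.01, SE 0.05, adjusted p = 1.69e-06 by limma) and did not pass at E10.5 (-0.55, SE 0.16, adjusted p = 0.116 by limma), where the groups did not overlap. The cardiomyocyte marker Tnnt2 was at 591 RPKM or more in every library, and 4 of 10 cardiomyocyte markers fell at E9.5, where 10.3% of all tested genes fell. At E9.5, 10 of 12 erythroid markers rose, where 6.87% of all tested genes rose. The erythroid markers held 0.817 to 2.05% of listed reads in flox and 2.07 to 5.51% in null libraries, with no marker at 0. At E10.5 the erythroid share was 1.76 to 5.13% in flox and 3.43 to 10.0% in null libraries, highest in null 3. The summed level of 8 foregut and liver genes at E10.5 was 5.92 to 192 RPKM in flox libraries and 22.8, 1471 and 1034 RPKM in null 1, 2 and 3. The E10.5 library null 3 also stood apart in the ribosomal protein genes, so the E10.5 differences of named members and the E10.5 medians of gene lists are given with and without it. In whole hearts, fewer cells of a type and less RNA per cell cannot be told apart.

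The measured levels of the members spanned several orders of magnitude. At E9.5 mean levels ran from 0 to 978 RPKM with a median of 6.94, below the median of 8.93 RPKM over all tested genes. At E10.5 their median was 9.63 RPKM, against 8.63 RPKM for all tested genes. At E9.5, 11 members were at 100 RPKM or more and at E10.5 12, while 48 and 37 lay between 0.5 and 10 RPKM. Among the highest at E9.5 were Rpl8 (978 RPKM), Rpl4 (442), Rps3 (335) and the stalk gene Rplp1 (290.2), and at E10.5 Rpl8 (851), Rpl4 (623), Rps3 (391) and Rps9 (259). The lowest were Rpl10l, listed at 0 in all 16 libraries, then Rpl39l (0.203 and 0.284 RPKM at E9.5 and E10.5), Rpl3l (0.407 and 0.348), Rps29 (0.573 and 0.593) and Rpl38 (0.828 and 1.17). All members together held 0.496 to 0.585% of listed reads at E9.5, and 18 of them were under 50 reads in every E9.5 library. In every E10.5 library 20 members were under 50 reads, Rpl36 among them.

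Ribosomal protein genes have many processed copies in the genome, and the sources used here do not give how reads matching several places were counted. RefSeq named 315 pseudogenes of 62 of the 80 members, up to 23 for Rpl31. Each member with a mean of 100 RPKM or more at either stage had at most 4 named copies, and the 24 members with 5 or more copies ranged from 1.18 to 62.5 RPKM at E9.5. Across the 80 members the Spearman rank correlation of copy number and mean level was -0.12 at E9.5 and -0.17 at E10.5, weak values over genes that share their libraries. Some rows of copies exceeded the parent gene: Rplp2-ps1 was 171 to 214.9 RPKM at E9.5 where Rplp2 was 6.34 to 10.2, and Rpl14-ps1 was 289 to 406 RPKM where Rpl14 was 122 to 149. Rps4l, a copy outside the name rule, was 82.0 RPKM ± 3.16 (SD, n = 5) in E9.5 flox libraries, where the parent gene Rps4x was 5.36 RPKM ± 0.66. Levels of members with near-identical copies, and of those overlapping another gene or a small nucleolar RNA, are therefore uncertain.

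Few genes of the family passed the test at E9.5. Differences were tested with limma on log2(RPKM + 0.5) for every gene whose mean reached 0.5 RPKM, p-values were adjusted by Benjamini-Hochberg over that whole set, and a gene was called at an adjusted p under 0.05. Of 77 members tested, 2 rose (Rpl17 and Rpl32), 3 fell (Rplp2, Rps27a and Rpl36) and 72 did not pass. Over all 13643 genes tested, 6.87% rose, 10.3% fell and 17.2% did either, so the members' 5 calls were a smaller share than the background. At an unadjusted p under 0.05, 2 members were higher and 9 lower, where 12.1% and 20.3% of all genes were. The difference was above 0 for 35 of 77 members and for 42.1% of all genes. The median log2 difference was -0.02 over the members, -0.02 for the 30 small subunit genes and 0.01 for the 47 large subunit genes tested, and -0.04 over all genes. The median half-width of the 95% interval was 0.24, and 76 of 77 intervals excluded a change of 1 log2 unit.

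The stalk of the large subunit, which recruits the translation factors that split GTP, is built on Rplp0 with pairs of Rplp1 and Rplp2. Rplp2 was 10.0, 8.69, 9.10, 10.2 and 9.37 RPKM in the flox and 8.27, 7.13, 6.98, 7.48 and 6.34 RPKM in the null libraries at E9.5. Every null library was below every flox library, as for 8.57% of all tested genes, and the log2 level of Rplp2 fell by 0.37 (SE 0.08, adjusted p = 0.00801 by limma). This row held 53 to 94 reads a library. The row of the copy Rplp2-ps1, at higher levels, overlapped between groups: 198.9 RPKM ± 14.7 (SD, n = 5) in flox and 192.2 ± 16.0 in null libraries. The fall is thus shown for the Rplp2 row and not for both rows. Rplp1 was 393, 308, 358, 308 and 297 RPKM in flox and 296, 323, 202, 214 and 203 RPKM in null libraries. Of its null values, 3 lay far under the flox range, 1 just under it and 1 within it, and the difference of -0.45 (SE 0.15, adjusted p = 0.0568 by limma) did not pass. Rplp0 was 34.9 to 40.9 RPKM in flox and 34.5 to 41.7 RPKM in null libraries, with a difference of -0.04 (95% interval -0.18 to 0.09).

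The other called genes lay on different chromosomes in GRCm38.p6: Rpl36 at chr17:56610094-56614246, Rpl32 at chr6:115805514-115808743 and Rps27a at chr11:29545842-29548040. Rps27a, which is made as a fusion to ubiquitin, was 6.62, 5.16, 4.99, 5.49 and 5.30 RPKM in flox and 4.79, 4.67, 4.52, 3.93 and 4.19 RPKM in null libraries. The groups did not overlap, and Rps27a fell by 0.29 (SE 0.09, adjusted p = 0.0424 by limma). Rpl36, a large subunit protein, was 13.98, 7.39, 9.09, 7.94 and 8.23 RPKM in flox and 7.68, 6.84, 4.58, 5.84 and 5.73 RPKM in null libraries, so that 1 null value reached the flox range. It fell by 0.55 (SE 0.17, adjusted p = 0.0494 by limma). Rpl17, which lines the exit tunnel for new peptides, was 5.40, 5.10, 5.30, 4.55 and 5.13 RPKM in flox and 6.08, 6.87, 6.10, 5.57 and 6.67 RPKM in null libraries. Its null values were all above the flox values, as for 5.5% of tested genes, and it rose by 0.27 (SE 0.07, adjusted p = 0.0276 by limma). Rpl32 was 67.4, 58.7, 69.1, 65.8 and 61.9 RPKM in flox and 67.3, 80.5, 74.7, 81.8 and 79.3 RPKM in null libraries, overlapping in 1 library, and rose by 0.25 (SE 0.07, adjusted p = 0.0288 by limma). Rpl6 was also lower in every null library (1.04 to 1.63 against 1.68 to 2.26 RPKM) without passing. At E9.5 the rows held 60 to 116 reads a library for Rps27a, 37 to 121 for Rpl36 and 71 to 102 for Rpl17. The Rpl32 row held 644 to 789. RefSeq named 3 pseudogenes of Rps27a, 10 of Rpl36, 11 of Rpl17 and 1 of Rpl32, so these calls are for the rows as counted.

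Most of these calls were close to the threshold. Rplp2 was called in each of the 10 fits without 1 library (adjusted p 0.00404 to 0.0245). Rpl17 was not called in 6 of them (without flox 2, 4 or 5, or null 2, 3 or 5) and Rpl32 in 6 (without flox 2 or 5, or null 2, 3, 4 or 5), with adjusted p up to 0.0709 for both. Rps27a was not called in 8 (all but those without flox 3 or null 1, adjusted p up to 0.0953) and Rpl36 in 8 (all but those without flox 2 or null 1, adjusted p up to 0.109), while Rplp1 was called without null 1 or null 2 (lowest adjusted p 0.0212). With samples scaled to a common median, 2 members rose and 1 fell, since Rpl36 and Rps27a then had adjusted p of 0.0674 and 0.0668. With the erythroid level as a covariate limma called no member, and over all genes 74 rose and 18 fell. The estimates of Rplp2 (-0.32), Rpl36 (-0.58) and Rpl17 (0.24) then stayed near those without it, while Rps27a was at -0.12 and Rpl32 at 0.05. The authors' deposited table for E9.5 lists 2 members among its 3094 genes, Rpl32 at 0.29 (adjusted p = 0.0464) and Rplp1 at -0.36 (adjusted p = 0.0382), as log2 of null over flox.

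**Figure D2:**
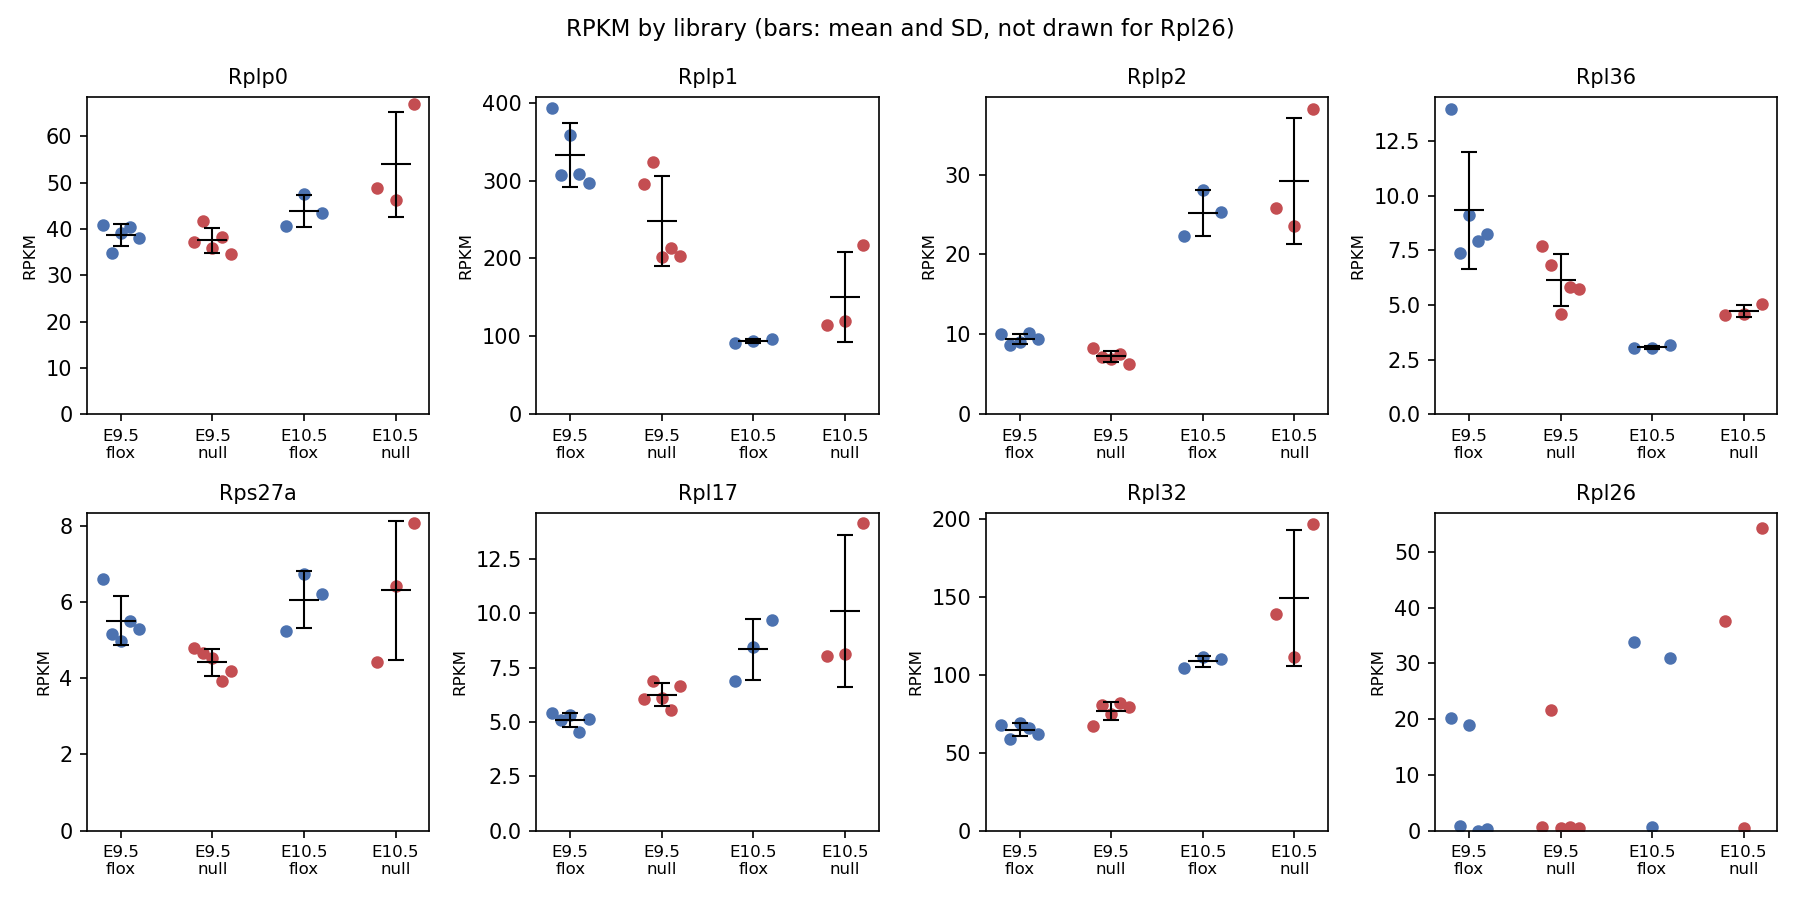
RPKM in each library for the stalk genes, the other members called at E9.5 and Rpl26, by stage and genotype (blue flox, red null), with mean and SD of 5 or 3 libraries (none for Rpl26). Rplp2 null values at E9.5 all lie below the flox values, and null 3 is the highest of the 6 E10.5 libraries in each panel.

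The most abundant members did not pass at E9.5. Rpl8 was 912 to 1131 RPKM in flox and 845 to 1044 RPKM in null libraries (log2 difference -0.14, SE 0.08). Rps3 (0.03, SE 0.07) and Rpl4 (0.07, SE 0.07) had 95% intervals within -0.12 to 0.22. Rpl5 and Rpl11, the proteins of the 5S particle, differed by 0.14 (SE 0.10) and -0.02 (SE 0.11), and Rps6 by 0.09 (SE 0.08). Rps19, whose loss causes Diamond-Blackfan anaemia in people, was 21.5 to 26.6 RPKM in flox and 19.0 to 26.3 RPKM in null libraries at E9.5, a difference of -0.09 (SE 0.09). Further down the order of differences, Rpl35 (-0.47, SE 0.20), Rps27 (-0.42, SE 0.19) and Rpl27 (-0.39, SE 0.23) had larger estimates but levels of 0.561 to 14.1 RPKM and wide errors.

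At E10.5 limma called no member, where 1.77% of the 14100 genes tested rose, 0.305% fell and 2.07% did either. At an unadjusted p under 0.05, 8 members were higher and 0 lower in null hearts, where 11.6% and 11.3% of all genes were, and limma-voom on whole reads recovered from the RPKM values called none. Of the 77 members, 64 had a positive difference, against 46.3% of all genes, and the median log2 difference was 0.23 over the members (0.27 for the small and 0.21 for the large subunit) and -0.03 over all genes. All null libraries lay above all flox libraries for 14 of 77 members, where 13.9% of all genes did so, and below them for 0, where 17.4% of all genes did. Among them were Rplp1, Rpl7a, Rpl8, Rpl11, Rpl14, Rpl32 and Rpl36 of the large subunit and Rps14, Rps15, Rps18, Rps19 and Rps24 of the small subunit. The median half-width of the 95% interval was 0.49, and 70 of 77 intervals excluded a change of 1 log2 unit.

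The E10.5 differences rested largely on null 3. Of the 77 members, 73 were highest in null 3 among the null libraries, and 66 were highest there among all 6. The same counts were not made over all genes, so whether they are particular to the members is not known. Against the mean of the flox libraries, the median member stood at 0.62 in null 3, at 0.10 in null 1 and at 0.03 in null 2. Members held 0.519, 0.552 and 0.554% of listed reads in flox libraries and 0.622, 0.558 and 0.813% in null 1, 2 and 3. Without null 3 the median difference was 0.06 over the members and -0.03 over all genes, and 46 of 77 members were positive. With the erythroid level as a covariate the median was 0.08 and 49 of 77 members were positive, while rescaling to the reads outside the erythroid and the 10 most abundant genes gave 0.28 and 67 of 77. With libraries weighted by their spread (arrayWeights) the median was 0.08 and 50 of 77 were positive. Over all genes the medians were -0.02 with the covariate, 0.01 after the rescaling and -0.02 with arrayWeights. The share of all genes with a positive difference was not counted in these fits or without null 3. In null 3 the median of other genes under 1 kb stood at 0.44 and that of all other genes at -0.02, and erythroid markers took 10.0% of its reads. The part of length in the E10.5 result was not tested.

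**Figure D3:**
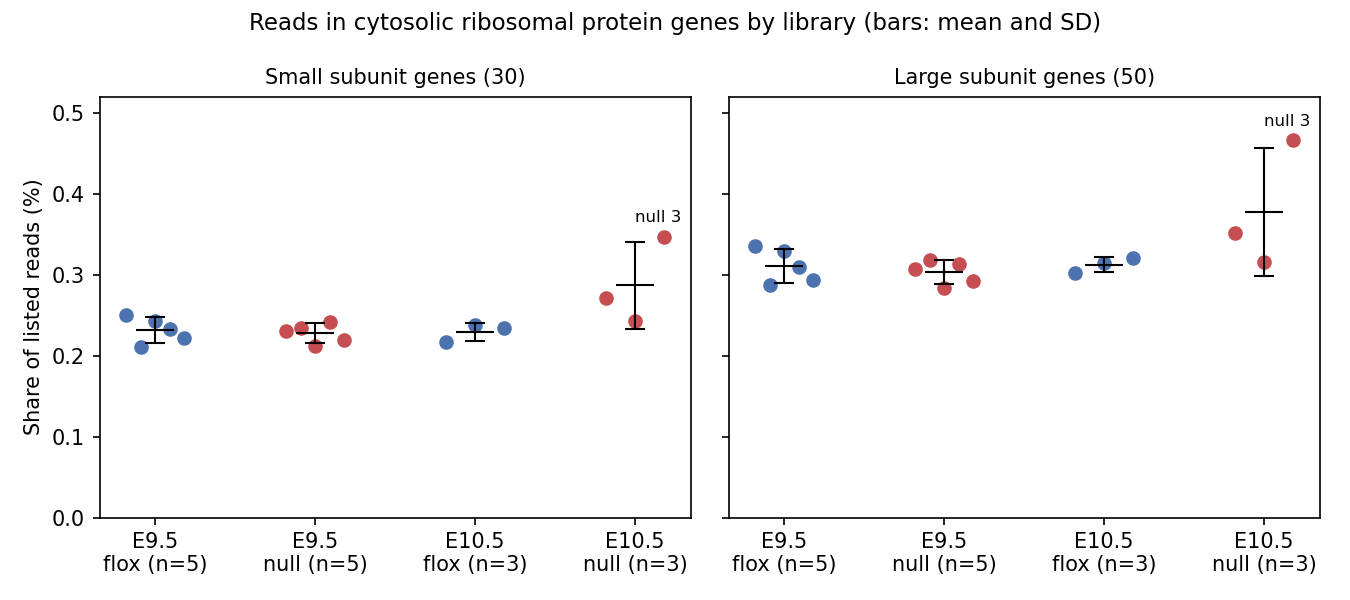
Share of listed reads, in percent, in small subunit (left) and large subunit (right) ribosomal protein genes in each library, with mean and SD of 5 libraries a group at E9.5 and 3 at E10.5. The E9.5 groups overlap, and at E10.5 null 3 lies above all other libraries in both panels.

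Gene length moved with these differences. Members are short, with a median length of 723 bp (range 323 to 5129) against 2812 bp over tested genes, and 59 of 80 are under 1000 bp. At E10.5 the median difference of the other genes was 0.18 under 500 bp, 0.14 from 500 to 1000 bp, 0.09 from 1000 to 2000 bp, -0.04 from 2000 to 4000 bp and -0.17 over 4000 bp. The members in the same classes had medians of 0.23, 0.31 and 0.16 for the 14, 44 and 15 genes under 2000 bp. These E10.5 medians include null 3, and the classes were not fitted without it. Against the flox mean, the other genes under 1 kb stood at 0.01 in null 1, 0.06 in null 2 and 0.44 in null 3. The only member over 4000 bp, Rps15a, whose listed length of 5129 bp is far above its coding length, was at -0.39 (SE 0.26). At E9.5 the other genes under 500 bp and from 500 to 1000 bp stood at -0.09 and -0.13, and the members at -0.04 and -0.03.

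**Figure D4:**
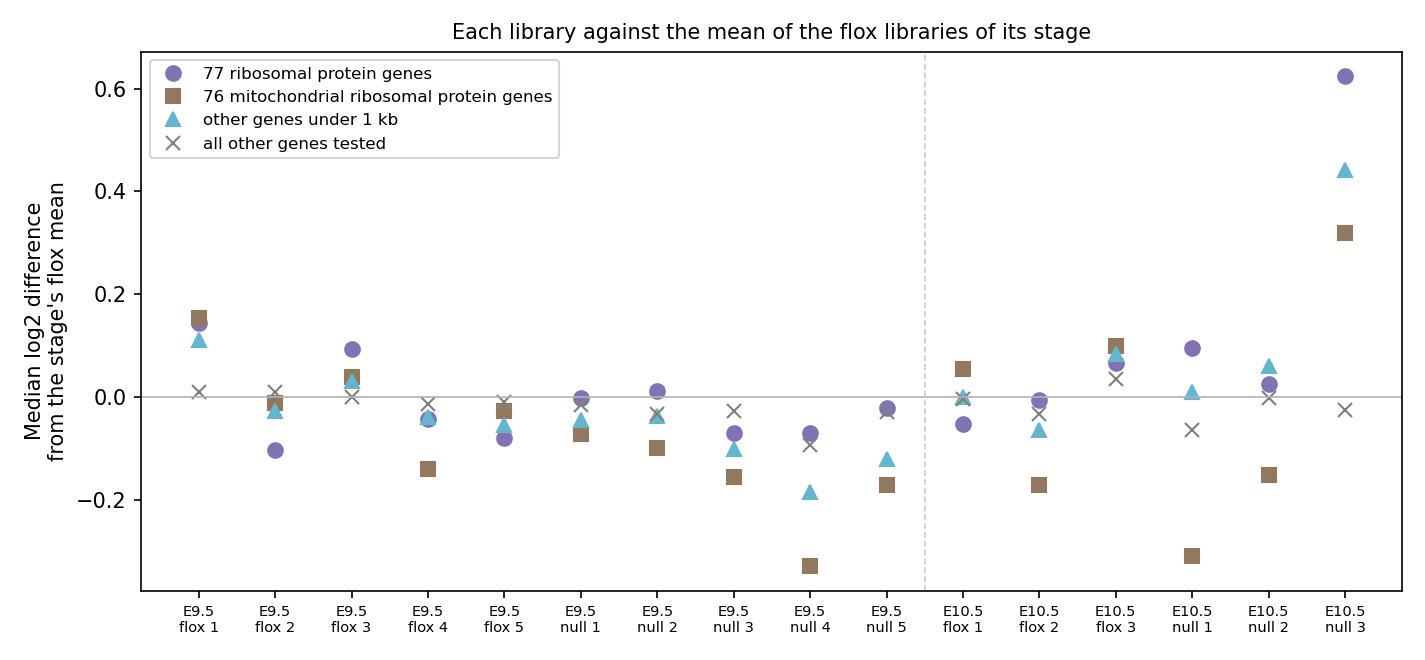
Median log2 difference of each library from the mean of the flox libraries of its stage, for 77 ribosomal protein genes, 76 mitochondrial ribosomal protein genes, other genes under 1 kb and all other genes tested. In null 3 of E10.5 the ribosomal protein genes stand at 0.62 and the other short genes at 0.44, while all other genes stand at -0.02.

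Rps19 had the highest estimate at E10.5. It was 7.58, 8.38 and 8.15 RPKM in flox and 11.4, 10.5 and 18.8 RPKM in null libraries, which did not overlap, and the log2 difference was 0.68 (SE 0.22, adjusted p = 0.139 by limma). Without null 3 it was 0.43. Rplp1 was 91.8, 94.3 and 96.3 RPKM in flox and 114, 120 and 218 RPKM in null libraries, with a difference of 0.61 (SE 0.24) that was 0.31 without null 3. Rpl36 was 3.03, 3.03 and 3.15 RPKM in flox and 4.54, 4.60 and 5.04 RPKM in null libraries, and depended less on null 3: its difference was 0.55 (SE 0.15, adjusted p = 0.107 by limma) with it and 0.51 without it. These Rpl36 values rest on 22 reads in each flox library and on 33, 35 and 37 reads in the null libraries. RefSeq named 10 pseudogenes of Rpl36. Rpl11 was 2.46, 1.98 and 2.55 RPKM in flox and 3.49, 3.24 and 3.92 RPKM in null libraries (0.52, SE 0.18, and 0.45 without null 3).

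Among the abundant members, Rpl8 was 652, 728 and 798 RPKM in flox and 838, 825 and 1266 RPKM in null libraries (0.40, SE 0.23, and 0.20 without null 3). Rpl14 was 136, 139 and 141 RPKM in flox and 179, 155 and 292 RPKM in null libraries (0.53, SE 0.23, and 0.26 without null 3). Of the other stalk genes, Rplp2 was 22.3, 28.0 and 25.3 RPKM in flox and 25.8, 23.6 and 38.2 RPKM in null libraries at E10.5, a difference of 0.18 (SE 0.20) that was -0.02 without null 3. Rplp0, the base of the stalk, was 40.7, 47.5 and 43.5 RPKM in flox and 48.8, 46.1 and 66.9 RPKM in null libraries (0.28, SE 0.17, and 0.11 without null 3). In both genes null 3 was the highest library and the other null libraries overlapped the flox range. Rpsa, which is also known as the laminin receptor, was 4.08, 4.28 and 4.51 RPKM in flox and 4.34, 3.74 and 6.61 RPKM in null libraries (0.14, SE 0.21, and -0.08 without null 3). Rps6 was 15.1, 13.0 and 15.7 RPKM in flox and 11.7, 12.6 and 18.2 RPKM in null libraries (-0.06, SE 0.19, and -0.25 without null 3). Rps4x, which is encoded on the X chromosome, was 14.5, 15.7 and 13.99 RPKM in flox and 16.4, 14.4 and 18.8 RPKM in null libraries (0.16, SE 0.15, and 0.06 without null 3).

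Among members with lower estimates in null hearts, Rpl15 was 50.3 to 68.2 RPKM in flox and 43.1 to 50.7 RPKM in null libraries (-0.36, SE 0.16, and -0.43 without null 3). Rps15a (-0.39), Rpl27 (-0.27), Rps23 (-0.23) and Rpl35a (-0.18) were estimated with SE of 0.22 to 0.30. Without null 3 they were lower still, at -0.58, -0.52, -0.38 and -0.34, and none passed.

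The difference between null and flox hearts was then compared between stages by the interaction term of 1 limma fit over 16 libraries. Of 77 members tested, 2 had a higher difference at E10.5 than at E9.5 (Rpl36 and Rplp1) and none a lower one, where 2.51% and 1.31% of 13886 genes did, 3.82% in all. For Rpl36 the differences were -0.55 at E9.5 and 0.55 at E10.5, and the interaction was 1.10 (SE 0.25, adjusted p = 0.0323 by limma). For Rplp1 they were -0.45 and 0.61, with an interaction of 1.06 (SE 0.28, adjusted p = 0.0492 by limma). The Rpl36 row held 37 to 121 reads a library at E9.5 and only 22 to 37 at E10.5. Rps19 had the next smallest p, with an interaction of 0.77 (SE 0.21, adjusted p = 0.0523 by limma), and did not pass. The interaction was positive for 63 of 77 members, against 49.6% of all genes, with a median of 0.31 that was 0.12 without E10.5 null 3.

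Both stage calls were close to the threshold. Rpl36 was not called in 7 of 16 fits without 1 library (without E9.5 flox 3 or 4, E9.5 null 3 or 5, or E10.5 flox 1, flox 2 or null 3, adjusted p up to 0.0842). Rplp1 was called in 4 of the 16 (without E9.5 null 1 or 2, or E10.5 null 1 or 2) and had an adjusted p of up to 0.117 in the other 12. Without E10.5 null 2 the count rose to 15 members, all with a higher difference, while over 13850 genes 806 were higher and 989 lower. Without E10.5 null 3 the count was 0 members, while over 13830 genes 229 were higher and 76 lower. With all libraries 349 genes were higher and 182 lower.

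**Figure D5:**
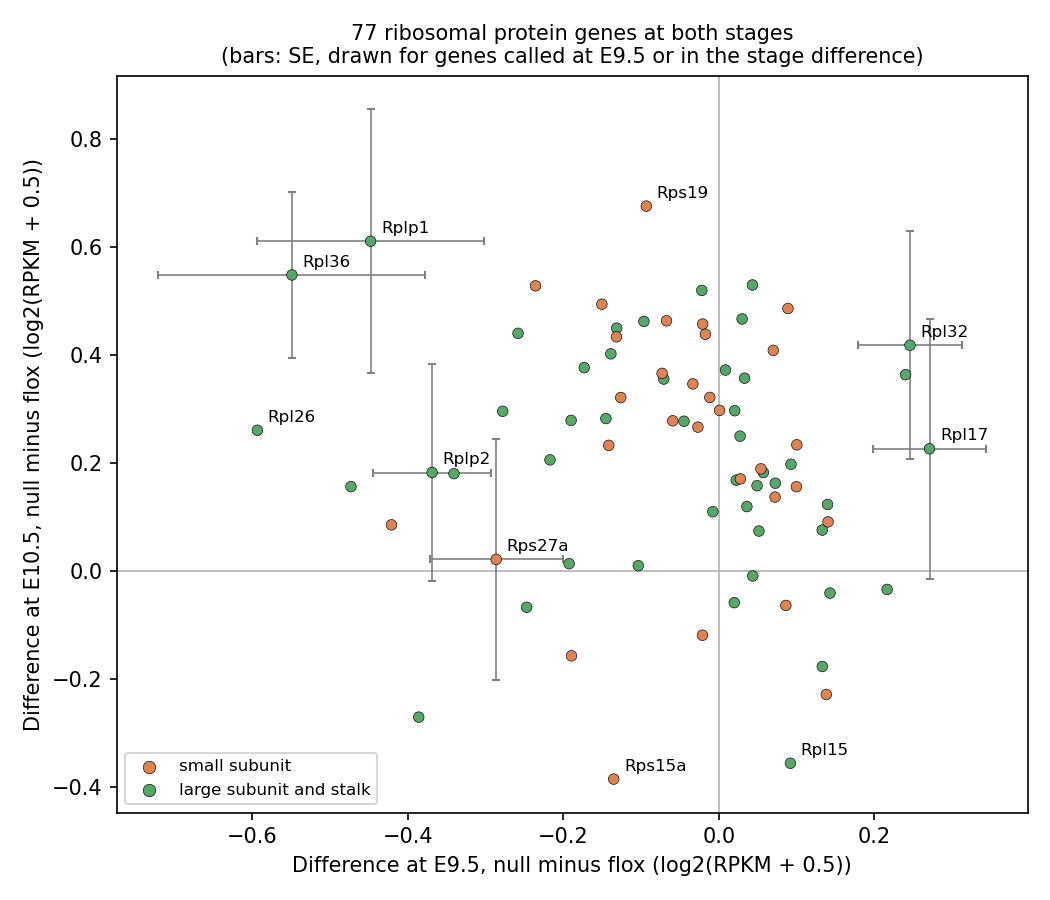
Difference between null and flox hearts (null minus flox, log2(RPKM + 0.5)) at E9.5 on the horizontal and at E10.5 on the vertical axis for 77 ribosomal protein genes, orange for the small and green for the large subunit, with SE bars for members called at E9.5 or between stages. Most points lie above 0 on the vertical axis (64 of 77), and Rpl36 and Rplp1 lie at the upper left.

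Rpl26 differed between libraries of the same group more than any other member. At E9.5 it was 20.1, 0.790, 19.0, 0 and 0.357 RPKM in flox and 0.659, 21.5, 0.463, 0.695 and 0.466 RPKM in null libraries. At E10.5 it was 33.8, 0.618 and 30.9 RPKM in flox and 37.7, 0.491 and 54.3 RPKM in null libraries. High and low libraries occurred in every group, and the null difference was -0.59 (SE 1.23) at E9.5 and 0.26 (SE 1.71) at E10.5. The row of Gm15772, which RefSeq lists as a transcribed pseudogene on chromosome 5 with Rpl26 among its synonyms, held the same number of reads as Rpl26 (chromosome 11) in all 16 libraries, for example 233 reads in E9.5 flox 1 and 10 in flox 2. Among 16248 rows with more than 50 reads in all, 14 sets of rows shared their reads in this way and this was the only set with a member, so reads of the gene and of its copy cannot be told apart.

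Paralog ratios within a library leave out its scaling, and were tested by exact permutation over libraries. A minor paralog reached 0.5 RPKM in 4 of 7 pairs, giving 8 tests over both stages, for which the smallest p that could be reached was 0.00794 at E9.5 and 0.1 at E10.5. None passed, with Benjamini-Hochberg adjusted p of 0.434 to 0.532. The log2 ratio of Rps27l, a paralog induced by p53, to Rps27 was 4.49 ± 0.13 (SD, n = 5) in flox and 4.90 ± 0.37 in null libraries at E9.5 (difference 0.41, two-sided exact p = 0.0873), and 5.36 ± 0.25 (SD, n = 3) against 5.13 ± 0.18 in E10.5 libraries. Rps27l and Rpl7l1 exceeded the family member they resemble in every library, and the log2 ratio of Rpl22l1 to Rpl22 was -4.48 ± 0.28 in E9.5 flox libraries. Rpl36al exceeded Rpl36a on average, with a log2 ratio of 0.31 ± 0.19 in flox and 0.12 ± 0.34 in null libraries at E9.5. At E10.5 this ratio was 0.74 ± 0.23 in flox and 0.92 ± 0.25 in null libraries. The muscle paralog Rpl3l was 0.342 to 0.4999 RPKM in flox and 0.169 to 0.539 RPKM in null libraries at E9.5, and 0.175 to 0.291 against 0.434 to 0.525 RPKM at E10.5, under the level tested.

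Genes that work with the ribosome were followed as lists, whose members were chosen with earlier results of these data known. Of 76 mitochondrial ribosomal protein genes, 12 fell and none rose at E9.5, where 10.3% of all genes fell and 6.87% rose, with a median difference of -0.18 against -0.04 over all genes. Mrpl14 went from 49.0 RPKM ± 3.63 (SD, n = 5) to 34.3 ± 4.51 and fell by 0.51 (adjusted p = 0.00332 by limma), and Mrps35 fell by 0.39 (adjusted p = 0.00363 by limma). At E10.5 no mitochondrial ribosomal protein gene was called by limma or limma-voom, and their median was -0.05. None had an unadjusted p under 0.05, where 11.6% of all genes were higher and 11.3% lower by it. Against the flox mean the median of the list stood at -0.31 in null 1, -0.15 in null 2 and 0.32 in null 3. Without null 3 the median difference was -0.24, against -0.03 over all genes. At an unadjusted p under 0.05, 18 genes of the list were then lower and 0 higher, where 1588 and 1616 of 14003 genes were. None of the list was called by limma. The Mrpl14 difference was higher at E10.5 than at E9.5 by 0.90 (adjusted p = 0.0252 by limma), and by 0.72 without E10.5 null 3 (adjusted p = 0.0403 by limma).

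Of 39 genes of ribosome biogenesis and rRNA synthesis, none was called at E9.5 by limma. At an unadjusted p under 0.05, 5 were lower in null hearts, where 20.3% of all genes were. By limma-voom 1 was called lower, where 1355 of 13643 genes were. The medians of the list were -0.07 at E9.5 and -0.13 at E10.5. At E10.5 limma and limma-voom called none of it, and 2 were lower at an unadjusted p under 0.05, where 11.3% of all genes were. Without null 3 the E10.5 median was -0.26. At an unadjusted p under 0.05, 8 genes of the list were then lower, where 1588 of 14003 genes were. None of the 39 was called by limma. Of 15 growth control genes, 1 rose and 3 fell at E9.5, against 6.87% and 10.3% of all genes. Mycn, a Myc family factor that drives ribosome production, fell from 38.1 RPKM ± 2.80 (SD, n = 5) to 26.2 ± 1.51 (log2 -0.53, adjusted p = 0.000366 by limma), while Myc rose from 15.3 ± 3.39 to 23.8 ± 4.58 RPKM (0.63, adjusted p = 0.0232 by limma). Mtor (-0.31) and its inhibitor Tsc2 (-0.22) also fell. At E10.5 none was called by limma or limma-voom. By unadjusted p under 0.05, 1 gene was higher and 2 were lower, against 11.6% and 11.3% of all genes. Mycn was at -0.66 (adjusted p = 0.0814 by limma), or -0.57 without null 3. The E10.5 median of the list was -0.10 with null 3 and -0.06 without it.

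Of 18 elongation factors and other mRNAs of the classical TOP class, Naca, a chaperone subunit at the exit tunnel, fell at E9.5 (-0.33, adjusted p = 0.0104 by limma) and the rest did not pass. Of all genes, 10.3% fell at E9.5. At E10.5 limma and limma-voom called none of the 18, and their median was 0.11, or 0.04 without null 3. By unadjusted p under 0.05, 1 of them was higher, where 11.6% of all genes were. None of 26 initiation factors was called at either stage by limma or limma-voom. By unadjusted p under 0.05, 2 of them were higher and 3 lower at E9.5, against 12.1% and 20.3% of all genes. At E10.5, 3 were lower, against 11.3% of all genes, and the median of the list was -0.04 with null 3 and -0.18 without it. Eif5 had a lower difference at E10.5 than at E9.5 (-0.56, adjusted p = 0.0375 by limma), and did not pass without E10.5 null 3 (-0.55, adjusted p = 0.0612 by limma). Of the 10 ribosomal proteins outside the name rule, Rps4l fell at E9.5 from 82.0 to 57.5 RPKM ± 12.4 (-0.54, adjusted p = 0.0181 by limma), and Rack1, a small subunit scaffold at 711 RPKM in flox hearts, did not pass (-0.09). At E10.5 their median was 0.06 with null 3 and -0.13 without it.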

How the data were processed

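RNA was measured in 16 heart libraries (flox and null, 5 a group at E9.5 and 3 at E10.5). Reads were placed on mm10 with tools that include Bowtie 1.2.0 and SAMtools 1.6, per the submitters' processing notes. The same notes list DESeq2 1.6.3, MACS2, HTSeq 0.6.2 and bedtools 2.25.0. Expression values are RPKM as deposited by the authors, 1 table a stage, with the gene length in bp that the authors deposited. Whole reads were recovered from RPKM and length (100% of values within 0.01 of a whole number) and used for depth, shares and limma-voom. The deposited log2 fold changes, with their adjusted p-values, are the authors' own comparison of flox over null, and their sign was turned. Peak positions and peak scores are the authors' deposited MACS2 values, with lists called per library, and the score was used only to rank peaks within a list. Which strand was counted, and how reads with several matches were treated, are not given in the sources used here.

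limma 3.58.1 (R 4.3.3) with a trend was fitted to log2(RPKM + 0.5), each stage alone, where the mean over a stage's libraries reached 0.5 RPKM. The stage difference was 1 fit of both tables. Paralog ratios were tested by exact permutation with scipy 1.17.1, and peaks were intersected with bedtools 2.31.1 (at least 1 base). The fit was tested on simulated data. Alternatives changed the pseudocount, filter, scaling, model, erythroid covariate, replicate block and peak overlap, or left out 1 library. The series text calls the libraries of a group biological replicates, and whether a library pools hearts is not stated in the labels.

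Named were members called, the 5 highest and lowest differences and levels a stage, stalk genes, Rpsa, Rps6, Rpl5, Rpl11, Rps19, Rps4x and the tissue-restricted paralogs, and in other lists up to 4 genes of smallest p. Rpl6, Gm15772, Eif4a1, the named copies and genes given as examples for peaks and motifs were added after their values were seen. The members and lists were chosen with earlier results of these data known. ChIP inputs were not used here, and single values of some members that the rule names are not reported here.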

Additional observations from a re-analysis of the deposited data

Results flagged for a closer look

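Among 82 groups of 5 libraries checked for 1 value far from the rest, 8 were marked, and chance marks about 1 in 20. High single libraries in E9.5 flox hearts were Rpl15 at 44.7 RPKM (next 33.5), Rpl19 at 1.79 (next 0.926), Rpl36 at 14 (next 9.09), Rpl39l at 0.265 (next 0.0614) and Rpl7 at 5.33 (next 4.18). In E9.5 null hearts, Rpl26 was 21.5 RPKM in 1 library (next 0.695), while Rpl36a was low in 1 library at 1.47 (next 2.42) and Rpl3l at 0.169 (next 0.441). Without the high flox library the Rpl36 call at E9.5 was lost.

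The difference between null and flox hearts changed between E9.5 and E10.5 for Rpl36 (interaction 1.10 on the log2 scale) and Rplp1 (interaction 1.06), both by the interaction term of limma.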

How the results depend on the processing

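The count of members called at E9.5, 5 as reported, was 0 with the erythroid level as a covariate, 3 with no filter, with median scaling, when the erythroid genes and top 10 genes were left out of the scaling, and by limma-voom, 9 with arrayWeights and 12 with the replicate block. It ran from 1 to 8 without 1 library. Over all 13643 genes, 1437 rose and 2112 fell with arrayWeights and 1398 and 2300 with the replicate block, against 937 and 1405 as reported. Without null 1, where 8 members were called, 1097 genes rose and 1676 fell. The E10.5 count of 0 was 2 with arrayWeights, Rpl36 among them, where 1033 of 14100 genes rose and 393 fell, against 249 and 43 as reported. The stage difference, 2 as reported, was 0 with arrayWeights, 1 with no filter, after the same rescaling and by limma-voom, 4 with the replicate block and 5 with the erythroid covariate, and 0 to 15 without 1 library. Over all 13886 genes it called 349 higher and 182 lower as reported, 882 and 495 with the replicate block and 431 and 355 with the erythroid covariate. The cause of these shifts was not tested. The E10.5 median of 0.23 ran from 0.08 (erythroid covariate, arrayWeights) to 0.28 in the settings that kept all libraries. Leaving out 1 library, it ran from 0.06 (without null 3) to 0.34 (without null 1). The share of members with a CHD4 peak, 88.3%, was 40.0% when at least 0.5 of a peak had to be shared (27.1% of tested genes), and 88.3 to 93.3% in the other settings, where tested genes had 49.1 to 84.0%. With the first or second list alone, members and tested genes were closer, at 93.3 against 84.0% and 91.7 against 75.1%.

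Replicate numbers were not used to pair the samples in the reported fits. Same-numbered libraries had correlations of -0.14 to 0.52 (E9.5) and -0.03 to 0.11 (E10.5), and 3 of 5 and 2 of 3 flox libraries correlated best with their own number. Whether the numbers mark a shared preparation is not given in the labels and was not tested. No paralog ratio passed in any setting, but at E10.5 and under the replicate block none could. Depth limits the 18 members under 50 reads in every E9.5 library and the 20 under 50 reads in every E10.5 library, Rpl36 among the latter.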

Other observations

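Levels of members in flox hearts at both stages are set side by side, without a test, since the tables were made from different amounts of RNA. Of 77 members that averaged 0.5 RPKM or more in these libraries, all E10.5 flox libraries lay above all E9.5 flox libraries for 26 (33.8%) and below them for 14 (18.2%). Over 13669 genes past the same limit the shares were 27.6% and 20.9%. The median log2 ratio was 0.13 over the members and 0.05 over all genes. Rpl7 was 4.30 RPKM at E9.5 and 16.7 at E10.5, Rps4x 5.36 and 14.7, Rplp2 9.47 and 25.2, and Rpl39 2.91 and 8.004. In the other direction Rplp1 was 333 and 94.1 RPKM, Rps19 23.7 and 8.04, Rpl36 9.33 and 3.07, and Rpl27 10.9 and 4.36. The rows of the stalk partners Rplp1 and Rplp2 thus stood in opposite directions between the tables. The row of the copy Rplp2-ps1 was higher than that of Rplp2, at 198.9 RPKM at E9.5 and 137.9 at E10.5 in flox hearts. How reads matching both were counted is not given, so the direction for Rplp2 mRNA is uncertain. Rplp1, Rpl36 and Rps19, lower in every E10.5 than in every E9.5 flox library, are also the members of smallest p in the stage difference, and both quantities use the same flox libraries.

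The libraries with high Rpl26 were also those with high Eif4a1, which encodes an initiation factor helicase and lies on chromosome 11 at 69666936 to 69672423, while Rpl26 lies at 68901566 to 68904534 (GRCm38.p6). Eif4a1 was 29.8, 11.3, 30.5, 11.02 and 10.7 RPKM in flox and 11.4, 25.1, 10.9, 11.02 and 12.4 RPKM in null libraries at E9.5. At E10.5 it was 22.7, 12.4 and 25.9 RPKM in flox and 22.5, 11.02 and 30.1 RPKM in null libraries. Eif4a1 was singled out after its values were seen, and the relation was not tested.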
